A study of Homo sapiens with 9 samples.

Results

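The 10 cadherin and catenin genes described here were CDH1, CDH2, CDH3, CDH4, CDH11, CDH13, CTNNA1, CTNNB1, CTNND1 and JUP, out of 26485 genes counted in each table. They were chosen by name, with their measured values in both ASAH1 shRNA comparisons known, so those comparisons are given for them as a description and without a test. RNA was sequenced from MDA-MB-231, a human triple-negative breast cancer cell line, in 9 libraries. The control group was 3 libraries of cells expressing a nonspecific hairpin (NS shRNA), and the knockdown groups were 3 libraries with ASAH1 shRNA #1 and 3 libraries with ASAH1 shRNA #2, hairpins of different sequence against the acid ceramidase gene ASAH1. The hairpin is the only labelled difference between the groups, all of which carry a hairpin in the same line. The study calls the 3 libraries of a group biological replicates without saying whether they came from separately made cells, so the p-values measure the spread between these libraries.

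Classical cadherins are calcium-dependent adhesion molecules whose outer domains bind cadherins of the neighbouring cell. Their tails bind p120-catenin (CTNND1), which keeps the cadherin at the membrane, and either beta-catenin (CTNNB1) or plakoglobin (JUP), which in turn hold alpha-catenin (CTNNA1), the link to actin. Outside the junction, beta-catenin also acts in the nucleus as the co-activator of Wnt signalling. E-cadherin (CDH1) is the cadherin of epithelia, and MDA-MB-231 cells are known as a mesenchymal-like line with little of it. The order used below is the type I cadherins, the type II cadherin CDH11, the lipid-anchored CDH13 and then the catenins.

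CDH1 RNA was far lower and JUP RNA was lower in the libraries of both ASAH1 shRNAs than in NS shRNA, while CDH2 and CDH4 were higher with both. CDH11 was lower with shRNA #1 and higher with shRNA #2. Per length it was the most abundant of the 6 cadherins in NS shRNA and with shRNA #2, while CDH4 was with shRNA #1. CTNNA1 and CTNNB1, the most abundant members, differed little between the groups. By the threshold used across all genes (limma, Benjamini-Hochberg adjusted p below 0.05), 6 of the 9 members tested passed with shRNA #1, 2 higher and 4 lower, where 66.1% of the 14341 genes tested passed, 32.8% higher and 33.3% lower. With shRNA #2, 7 of 9 passed, 4 higher and 3 lower, where 66.9% of the 14250 genes tested passed, 33.5% higher and 33.4% lower. Since these comparisons chose the members, nothing is read from those counts. The remaining member, CDH13, had too few reads to be tested.

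The libraries held 30989598 to 34867548 reads on genes with NS shRNA, 23806003 to 39791698 with shRNA #1 and 35653318 to 49659106 with shRNA #2. ASAH1, the targeted gene, had a normalized count of 4489 ± 45.4 (SD, n = 3) in NS shRNA and 1327 ± 51.9 (n = 3) with shRNA #1. In the other table it had 4852 ± 57.9 in NS shRNA and 783 ± 22.6 with shRNA #2, so the labels and the target agree in direction in every library. A normalized count is a gene's reads after division by a size factor. Each hairpin's table was normalized on its own, so the same NS shRNA reads have slightly different values in the 2 tables. All 10 MDA-MB-231 markers (VIM, AXL, CD44, EGFR, CAV1, ZEB1, FOSL1, MSN, SPARC and S100A4) were above 3 reads in each library, and CDKN2A, which this line has lost, had at most 2 reads. In bulk RNA, fewer cells with a transcript and less of it per cell cannot be told apart.

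The RefSeq promoters used here hold 5 of the 10 members, CDH2, CDH4, CTNNA1, CTNNB1 and JUP. The upstream sequences of CDH2, CDH4 and JUP are shown, the 3 of these 5 with the larger log2 fold changes of 1 sign in both comparisons. They are given as the 250 bases before the RefSeq start on GRCh38.p14, read 5′ to 3′ on the gene's strand. The windows lie at chr18:28177131-28177380 (minus strand), chr20:61499171-61499420 (plus strand) and chr17:41786712-41786961 (minus strand), and the start used in these cells is not known. The RefSeq start lies 0.22 kb inside the annotated span of JUP and 0.816 kb inside that of CDH2, but 247.2 kb inside that of CDH4, 142.5 kb inside that of CTNNA1 and 4.76 kb inside that of CTNNB1, so these last 3 windows precede internal starts. Capitals mark the E-box CACCTG or CAGGTG, the form bound by SNAI and ZEB proteins, and the GC box GGGCGG or CCGCCC, each searched on both strands.
CDH2: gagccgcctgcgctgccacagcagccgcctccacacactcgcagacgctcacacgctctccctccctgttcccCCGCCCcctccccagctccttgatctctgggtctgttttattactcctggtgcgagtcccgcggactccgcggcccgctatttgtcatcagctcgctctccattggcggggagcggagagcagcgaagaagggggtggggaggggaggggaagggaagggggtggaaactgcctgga
CDH4: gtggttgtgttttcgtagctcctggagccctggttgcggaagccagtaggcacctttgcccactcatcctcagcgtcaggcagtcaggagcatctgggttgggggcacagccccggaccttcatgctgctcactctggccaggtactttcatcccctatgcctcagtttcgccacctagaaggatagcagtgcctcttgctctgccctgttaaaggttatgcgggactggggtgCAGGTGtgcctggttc
JUP: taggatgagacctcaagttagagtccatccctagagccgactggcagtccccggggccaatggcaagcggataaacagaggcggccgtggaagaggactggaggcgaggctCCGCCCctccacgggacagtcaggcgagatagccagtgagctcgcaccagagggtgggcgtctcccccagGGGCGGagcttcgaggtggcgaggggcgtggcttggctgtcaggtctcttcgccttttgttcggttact
CDH4 had 1 E-box, whose first base is 16 bases upstream of the start, and CDH2 and JUP had none, as did CTNNA1 and CTNNB1. Of all 27305 RefSeq promoters of this length, 17.5% hold at least 1 such E-box. The GC box was found 1 time before CDH2, 2 times before JUP, 3 times before CTNNB1, 9 times before CTNNA1 (overlapping matches counted) and 0 times before CDH4, and 42.3% of all promoters hold at least 1. These matches describe letters in the windows and not binding. CDH1, CDH3, CDH11, CDH13 and CTNND1 are given by name only.

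CDH1 encodes E-cadherin and lies at chr16:68737292-68835537 (hg38, plus strand). Its normalized counts were 399.8, 475 and 468 in NS shRNA and 56.2, 33.7 and 36.5 with shRNA #1. In the other table they were 431, 516 and 505 in NS shRNA and 12.9, 17.5 and 13.2 with shRNA #2. The 3 groups did not overlap, NS shRNA being the highest and shRNA #2 the lowest. The log2 fold change was -3.41 (SE 0.18) with shRNA #1 and -4.97 (SE 0.16) with shRNA #2, on the scale of log2(normalized count + 1). CDH1 was thus left with 38 to 42 reads a library with shRNA #1 and 12 to 18 with shRNA #2, against 382 to 507 in NS shRNA.

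CDH3 encodes P-cadherin, the other epithelial type I cadherin of the breast, and is the neighbour of CDH1, ending 9.82 kb before its start on the same strand (chr16:68636189-68727468). It had 26.2, 19.6 and 37.9 normalized counts in NS shRNA and 42.8, 38.6 and 29.8 with shRNA #1, and these ranges overlapped. In the other table it had 28.2, 21.3 and 40.8 in NS shRNA and 7.55, 15.5 and 9.31 with shRNA #2, with no overlap. The log2 fold change of CDH3 was 0.43 (SE 0.27) with shRNA #1 and -1.41 (SE 0.36) with shRNA #2. Both neighbouring cadherin genes were thus below NS shRNA in all shRNA #2 libraries. CDH3 had only 7 to 48 reads in any library. Without NS shRNA replicate 3 its log2 fold change with shRNA #1 was 0.67. Of the genes flanking the pair, TANGO6, on the CDH1 side, had log2 fold changes of -0.26 (SE 0.07, limma adjusted p = 0.00692) and -0.06 (SE 0.07, adjusted p = 0.449) with shRNA #1 and #2, and ZFP90, on the CDH3 side, had 0.50 (SE 0.11, adjusted p = 0.00363) and -0.32 (SE 0.11, adjusted p = 0.0238). The ZFP90 call with shRNA #2 was lost without NS shRNA replicate 3 or shRNA #2 replicate 3 (adjusted p up to 0.0818).

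CDH2 encodes N-cadherin, the type I cadherin of neural and mesenchymal cells (chr18:27932879-28177946, minus strand). It was scarce in every library, with 35.6, 52.0 and 42.5 normalized counts in NS shRNA and 105.6, 103.6 and 88.4 with shRNA #1. Against 38.4, 56.5 and 45.8 in NS shRNA, the shRNA #2 libraries had 71.2, 72.9 and 83.8. All knockdown libraries were above all NS shRNA libraries, with log2 fold changes of 1.19 (SE 0.18) and 0.70 (SE 0.19). CDH4 encodes R-cadherin, a type I cadherin best known from retina and nervous system (chr20:61252261-61940617, plus strand). CDH4 had 1007, 972 and 996 normalized counts in NS shRNA and 1135, 1189 and 1130 with shRNA #1. It had 1086, 1055 and 1074 in NS shRNA and 1938, 1979 and 1731 with shRNA #2. The groups were apart in both tables, and the log2 fold change of CDH4 was 0.22 (SE 0.05) with shRNA #1 and 0.81 (SE 0.07) with shRNA #2.

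CDH11 encodes cadherin-11, or OB-cadherin, the type II cadherin of osteoblasts and other mesenchymal cells (chr16:64943753-65126112, minus strand). It had 1859, 1985 and 2075 normalized counts in NS shRNA and 1103, 1097 and 1120.4 with shRNA #1. In the other table it had 2006, 2155 and 2237 in NS shRNA and 13491, 13644 and 12401 with shRNA #2. The shRNA #1 libraries were thus all below, and the shRNA #2 libraries all above, those of NS shRNA. The log2 fold change of CDH11 was -0.83 (SE 0.06) with shRNA #1 and 2.63 (SE 0.06) with shRNA #2.

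CDH13 encodes T-cadherin, which is held by a lipid anchor and has no tail to bind catenins (chr16:82626965-83800640, plus strand). It had 0, 2 and 1 reads in NS shRNA, 7, 7 and 6 with shRNA #1 and 2, 3 and 3 with shRNA #2. Set against a floor of 3 reads in each NS shRNA library, the mean level with shRNA #1 was 2.35-fold that floor. The counting error of the 6 to 7 reads with shRNA #1 is not included. No fold is given for shRNA #2, where both groups were at the floor.

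JUP encodes plakoglobin, or gamma-catenin, which takes the place of beta-catenin in the cadherin complex and is also found in desmosomes (chr17:41754604-41786931, minus strand). It had 5809, 5594 and 5666 normalized counts in NS shRNA and 2702, 2689 and 2615 with shRNA #1. It had 6268, 6072 and 6109 in NS shRNA and 2999, 2810 and 2795 with shRNA #2. Both knockdown groups were below every NS shRNA library, and by nearly the same amount, with log2 fold changes of -1.09 (SE 0.04) and -1.10 (SE 0.05), or 2.13-fold and 2.15-fold lower.

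CTNNB1 encodes beta-catenin (chr3:41194741-41260096, plus strand). It had 15438, 16662 and 16359 normalized counts in NS shRNA and 14353, 14421 and 14626 with shRNA #1. It had 16658, 18087 and 17639 in NS shRNA and 18879, 18075 and 18642 with shRNA #2. The log2 fold change of CTNNB1 was -0.16 (SE 0.04) with shRNA #1 and 0.09 (SE 0.05) with shRNA #2. CTNNA1 encodes alpha-catenin (chr5:138610967-138935034, plus strand). It had 24131, 25233 and 25452 normalized counts in NS shRNA and 26611, 27099 and 26212 with shRNA #1. It had 26038, 27391 and 27442 in NS shRNA and 33375, 33411 and 32115 with shRNA #2. The log2 fold change of CTNNA1 was 0.10 (SE 0.04) with shRNA #1 and 0.29 (SE 0.05) with shRNA #2.

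CTNND1 encodes p120-catenin and had only 19 to 57 reads in any library. The readthrough gene TMX2-CTNND1 (chr11:57712523-57819180 in RefSeq) covers 99.4% of the RefSeq span of CTNND1 (chr11:57761802-57819540) and had 0 reads in all 9 libraries, while the upstream gene TMX2 had 2416 to 4747. The counting used here drops reads that fall on more than 1 gene, so the CTNND1 counts are uncertain, and what set them was not tested. The log2 fold changes of CTNND1 were 0.04 (SE 0.28) and 0.04 (SE 0.24), and all groups overlapped.

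**Figure D1:**
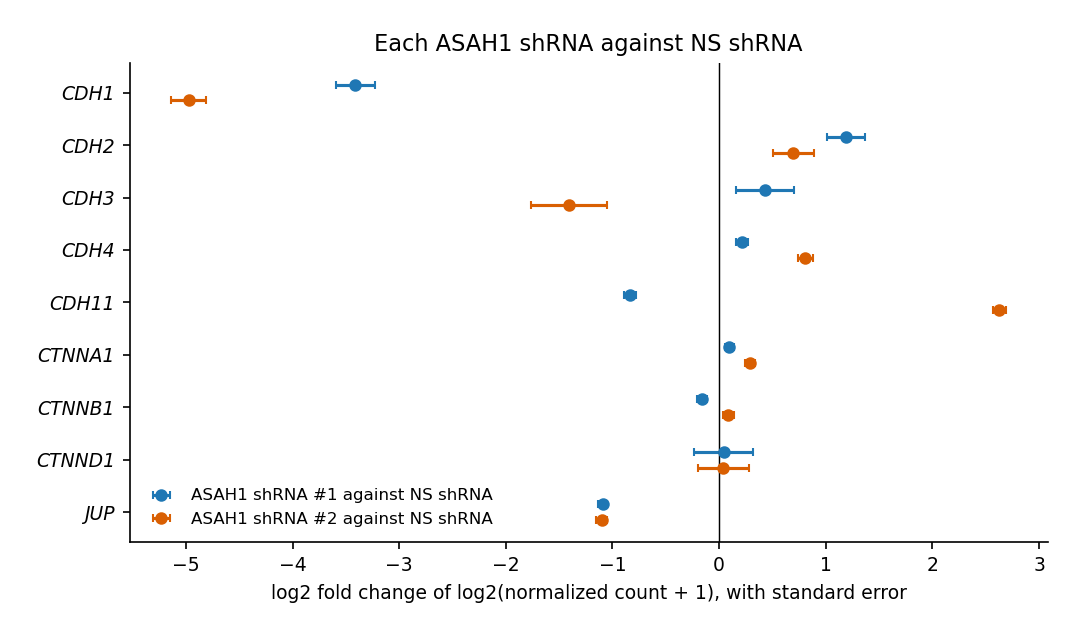
Log2 fold change of log2(normalized count + 1) for 9 members (vertical axis) with ASAH1 shRNA #1 (blue) and #2 (orange) against NS shRNA, with bars of 1 standard error and 3 libraries a group. CDH1 and JUP lie left of 0 with both hairpins, CDH2 and CDH4 right of 0 with both, and CDH11 on opposite sides at -0.83 and 2.63.

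To compare the genes with each other, reads were divided by exon length and library size, giving reads per kb of exon per 1000000 reads (RPKM). With NS shRNA the order of these levels was CTNNA1 (84.9 ± 2.39, SD, n = 3), CTNNB1 (41.3 ± 1.69), JUP (34.6 ± 0.63), CDH11 (4.47 ± 0.24), CDH4 (3.97 ± 0.06), CDH1 (2.21 ± 0.21), CDH2 (0.152 ± 0.029), CDH3 (0.131 ± 0.043), CTNND1 (0.0639 ± 0.0173) and CDH13 (0.00263 ± 0.00269). Of the neighbours in that order, CDH2 and CDH3 overlapped, CDH3 and CTNND1 were apart by 0.0927 against 0.0838 at their nearest libraries, and the others were apart. The place of CTNND1 in this order is as uncertain as its counts. In the control cells CTNNA1, CTNNB1 and JUP were thus several times more abundant, as RNA per length, than any of these cadherins.

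With shRNA #1 CDH4 (4.62 ± 0.15) passed CDH11 (2.51 ± 0.03), and CDH2 (0.349 ± 0.033) stood above CDH1 (0.209 ± 0.059), which now overlapped CDH3 (0.175 ± 0.031). With shRNA #2 CDH11 (27.7 ± 1.40) stood above JUP (16.2 ± 0.62) and only below CTNNA1 and CTNNB1 among the 10 genes. CDH1 (0.0667 ± 0.0118) then overlapped CDH3 (0.0471 ± 0.0184). It also overlapped CTNND1 (0.0646 ± 0.0017), whose counts are uncertain, so the abundance of CTNND1 cannot be judged from this.

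**Figure D2:**
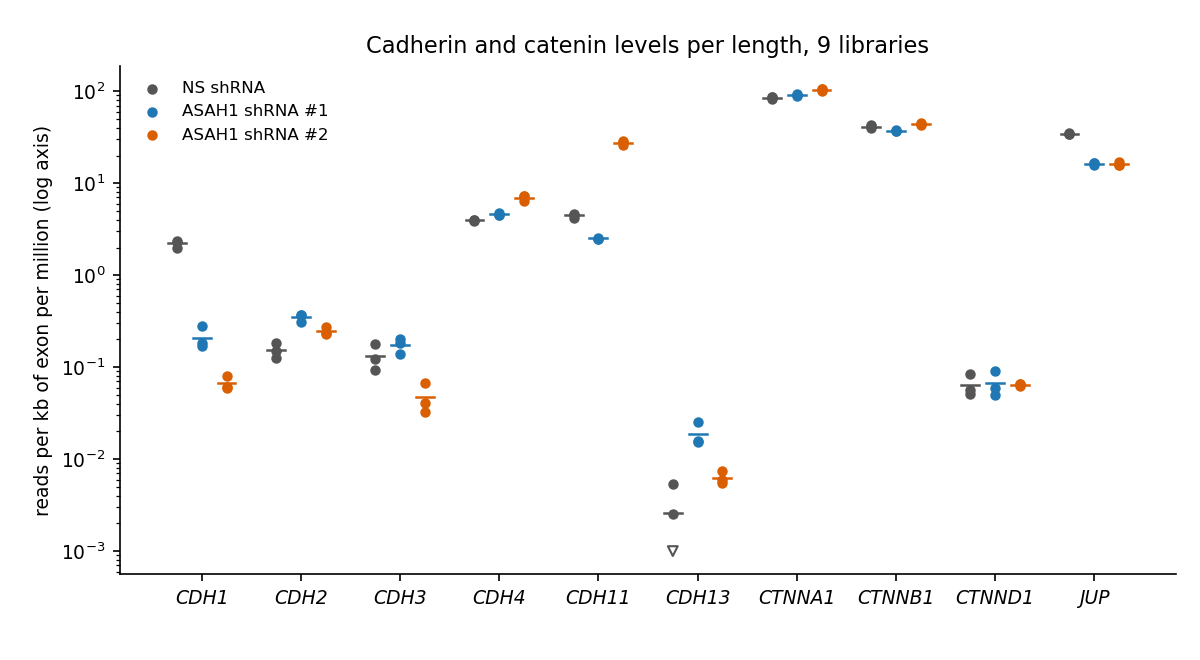
RPKM (reads per kb of exon per 1000000 reads, log axis) of the 10 genes in the 9 libraries, with 1 point a library, a line at each group's mean and an open triangle at the lower edge for the library with 0 CDH13 reads. CTNNA1 and CTNNB1 change little between the groups, JUP steps down from 34.6 to about 16.2, CDH1 falls from 2.21 to 0.0667 and CDH11 with shRNA #2 reaches 27.7.

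The summed RPKM of the 6 cadherins was 10.9 ± 0.42 in NS shRNA, 7.89 ± 0.15 with shRNA #1 and 35.0 ± 1.88 with shRNA #2 (SD, n = 3), and the groups were apart. With the longest transcript as length the sums were 16.4, 11.3 and 62.0. CDH1 made up 18.9 to 21.3% of it in NS shRNA, 2.10 to 3.51% with shRNA #1 and 0.166 to 0.221% with shRNA #2. CDH11 held 40.2 to 41.5% in NS shRNA, 31.2 to 32.9% with shRNA #1 and 78.8 to 79.3% with shRNA #2. CDH4 held 35.2 to 38.5% in NS shRNA, was the largest share with shRNA #1 at 57.4 to 59.7%, and held 19.6 to 20.2% with shRNA #2. The leading cadherin RNA therefore differed between the hairpins, with CDH4 for #1 and CDH11 for #2. With the longest transcript in place of all exons the CDH4 and CDH11 shares with shRNA #1 were closer, at 45.8% and 42.8%.

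**Figure D3:**
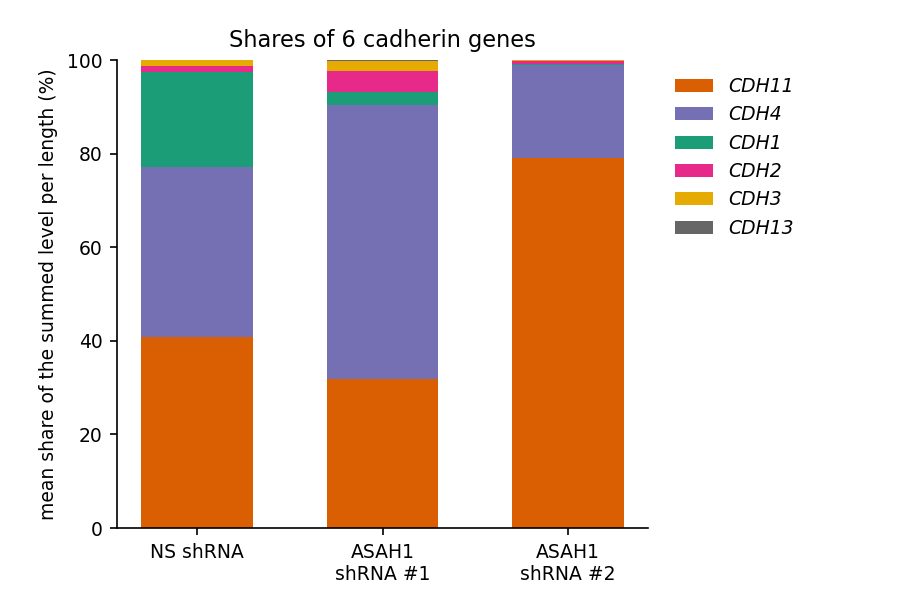
Mean share (%, from 0 to 100, 3 libraries a group) of each cadherin gene in the summed RPKM of 6 cadherins. The CDH1 band shrinks from 20.2% with NS shRNA to 2.65% with shRNA #1 and 0.190% with shRNA #2, CDH4 is the widest band with shRNA #1 (58.6%) and CDH11 with shRNA #2 (79.0%).

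Ratios within a library do not depend on its scaling, though they do on the lengths used. The CDH1 to CDH2 ratio of RPKM was 15.9, 12.9 and 15.6 in NS shRNA, 0.751, 0.460 and 0.583 with shRNA #1 and 0.257, 0.339 and 0.222 with shRNA #2. E-cadherin RNA thus exceeded N-cadherin RNA in all NS shRNA libraries and was below it in all knockdown libraries. The JUP to CTNNB1 ratio, which sets the alternative tail partners against each other, was 0.895, 0.799 and 0.824 in NS shRNA, 0.448, 0.444 and 0.425 with shRNA #1 and 0.378, 0.370 and 0.357 with shRNA #2. The CTNNA1 to CTNNB1 ratio was 2.06 ± 0.03 in NS shRNA, 2.45 ± 0.06 with shRNA #1 and 2.37 ± 0.08 with shRNA #2. With the longest transcript the mean CDH1 to CDH2 ratio was 8.73, 0.353 and 0.161 in NS shRNA, shRNA #1 and shRNA #2, and the JUP to CTNNB1 ratio 0.492, 0.257 and 0.216, in the same order of groups.

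The hairpins were also set directly against one another on the recovered reads (edgeR quasi-likelihood test, Benjamini-Hochberg adjustment). This comparison did not choose the members, but it uses libraries whose values were in view when they were chosen. Of the 9 members tested, 7 passed, 4 higher and 3 lower with shRNA #2, where 63.3% of the 14714 genes tested passed, 31.1% higher and 32.1% lower. The share of members is thus near that of all genes, and CDH11 had the largest difference of the 9. CDH11 was 3.45 higher on the log2 scale with shRNA #2 (SE 0.06, 95% interval 3.32 to 3.59, adjusted p = 6.8e-12, higher in 3 of 3 libraries than all shRNA #1 libraries). CDH1 was lower by a log2 difference of -1.60 (SE 0.25, interval -2.15 to -1.05, adjusted p = 0.000170), and CDH3 by -1.87 (SE 0.33, interval -2.60 to -1.15, adjusted p = 0.000423). CDH4 (0.59, SE 0.06, adjusted p = 6.1e-06), CTNNB1 (0.24, SE 0.04, adjusted p = 0.000332) and CTNNA1 (0.19, SE 0.04, adjusted p = 0.000919) were higher with shRNA #2, in 3 of 3 libraries each. CDH2 was lower by -0.50 (SE 0.16, adjusted p = 0.0195), a call that was lost without shRNA #1 replicate 2 (adjusted p = 0.066) or shRNA #2 replicate 1 (0.0595) or 2 (0.053).

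JUP did not pass between the hairpins (log2 difference -0.02, SE 0.05, adjusted p = 0.785), and the interval of -0.12 to 0.09 bounds the difference. For CTNND1 the interval of -0.66 to 0.47 was much wider (difference -0.09, adjusted p = 0.768). For ASAH1 itself the log2 difference of shRNA #2 from shRNA #1 was -0.88.

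The genes whose pattern over the 9 libraries was most like that of CDH1 were found by Euclidean distance between mean-centred log2(CPM + 1), CPM being counts per 1000000 reads, among 11625 other genes with a mean of at least 100 reads. They were MPZL2 (distance 0.637), which encodes an epithelial adhesion protein of the immunoglobulin type, the complement protease C1R (0.992), ASAH1 (1.32), the adhesion glycoprotein EMB (1.41) and the endothelin EDN2 (1.44). MPZL2 had log2 fold changes of -2.74 and -3.93 with shRNA #1 and #2, beside -3.41 and -4.97 for CDH1. EMB differed more between the hairpins, at -2.17 and -6.02. These distances are a description over libraries that share 3 groups.

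Among 31 other cadherin and catenin genes, 11 could be tested with shRNA #1 and 12 with shRNA #2, and most of the rest had next to no reads. The limma test passed 3 higher and 6 lower with each hairpin. The median log2 fold changes were -0.54 and -0.22, beside 0.00 and 0.01 over all genes tested. For this and each list below, 32.8% of all genes tested passed as higher and 33.3% as lower with shRNA #1. With shRNA #2 these shares were 33.5% and 33.4%. The lists were chosen with earlier results of these data known, so no enrichment is read from their counts. FAT3, a giant atypical cadherin, was higher with both (1.35 and 1.69, adjusted p = 1.9e-06 and 1.9e-07). The planar polarity cadherins CELSR1 (-0.93 and -1.53) and CELSR2 (-1.72 and -1.01) were lower with both, all with adjusted p below 0.05. FAT4 was lower with shRNA #1 (-1.10, adjusted p = 2.2e-06) and had -0.06 (adjusted p = 0.584) with shRNA #2. CELSR3 was higher with shRNA #1 (0.53), and PKP4, a p120-related catenin, was higher with shRNA #2 (0.22, adjusted p = 0.00870).

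Of 20 partners of the adherens junction, 19 were tested, and 7 were higher and 9 lower with shRNA #1 and 6 higher and 5 lower with shRNA #2 (medians 0.00 and 0.03). Genes of this list thus went both ways, as did all genes tested, and nothing is read from these counts. Nectin-1, listed as PVRL1 and an adhesion receptor that nectin-afadin junctions share with the cadherins, was lower with both hairpins (-0.63 and -1.01, adjusted p = 9.6e-05 and 1.4e-06), as was the actin cross-linker ACTN4 (-0.59 and -0.72). PLEKHA7, which binds p120-catenin at the junction, was higher with both (1.06 and 0.73), as was LIMA1, an actin-binding protein that can join alpha-catenin (0.92 and 0.19, the second lost without NS shRNA replicate 1 or 2 or shRNA #2 replicate 2, adjusted p up to 0.0911). CAMSAP3, the microtubule minus-end protein recruited through PLEKHA7, was higher with shRNA #2 (1.77, adjusted p = 1.6e-06) and had 0.14 (adjusted p = 0.588) with shRNA #1. AJUBA, a LIM protein that binds alpha-catenin, was higher with both (0.25 and 0.84).

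Of 16 genes of cadherin cleavage, endocytosis and recycling, 5 were higher and 6 lower with shRNA #1 and 7 higher and 5 lower with shRNA #2 (medians 0.02 and -0.02). ADAM10, the sheddase that cuts E- and N-cadherin, fell from 455 ± 36.4 CPM in NS shRNA to 186 ± 6.56 with shRNA #1 (log2 fold change -1.29, adjusted p = 2.0e-07), and less with shRNA #2 (392 ± 15.5, -0.22, adjusted p = 0.0132). The log2 difference in ADAM10 between the hairpins was 1.07 (edgeR adjusted p = 4.7e-08). CBLL1, or Hakai, the ubiquitin ligase of E-cadherin, was higher with both (0.55 and 0.43), as was the early endosome GTPase RAB5A (0.39 and 0.39). The recycling GTPase RAB11A was lower with both (-0.47 and -0.47), as was FURIN, the protease that matures cadherins (-0.40 and -0.59). ADAM15 (0.26 and 0.70) and ARF6 (0.25 and 0.66) were higher with both, and PIP5K1C was lower with shRNA #1 (-0.53, adjusted p = 1.3e-05) and had 0.04 (adjusted p = 0.593) with shRNA #2.

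To place CDH1 beside the genes known to control it, 18 transcriptional regulators of E-cadherin and of the epithelial state were read. With shRNA #1, 8 of the 11 tested were higher and 2 lower, where 32.8% and 33.3% of all genes tested were. With shRNA #2, 7 of 10 were higher and 2 lower, where 33.5% and 33.4% were (medians 0.68 and 0.52). As the list was chosen with earlier results known, nothing is read from these counts. The list holds repressors of CDH1 and genes of the epithelial state, and genes of both kinds rose: the epithelial genes GRHL1 (1.26 and 1.48) and ESRP2 (0.68 and 0.44), named after their values were seen, were higher with both hairpins. Of the repressors, ZEB2 rose from 11.03 ± 1.19 CPM in NS shRNA to 26.5 ± 2.25 with shRNA #1 and 22.6 ± 2.11 with shRNA #2 (log2 fold changes 1.26 and 1.03, adjusted p = 3.6e-06 and 8.4e-06). ZEB1 rose from 56.1 ± 6.24 to 82.3 ± 5.65 and 88.2 ± 9.46 CPM (0.55 and 0.65, adjusted p = 0.000340 and 0.000168). Both ZEB genes were above NS shRNA in 6 of 6 knockdown libraries.

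SNAI2, or Slug, differed between the hairpins. It was 27.4 ± 1.83 CPM in NS shRNA, 70.0 ± 2.62 with shRNA #1 (1.35, adjusted p = 2.1e-07) and 25.3 ± 1.64 with shRNA #2 (-0.12, adjusted p = 0.212), and the log2 difference between the hairpins was -1.47 (edgeR adjusted p = 1.2e-08). CDH1 was also lower with shRNA #2 than with #1 (-1.60). Whether SNAI2 has a part in the CDH1 values was not tested. SNAI1, with 25 to 78 reads a library, was higher with both (0.69 and 0.89, adjusted p = 0.0248 and 0.00498), and the call with shRNA #1 was lost without any 1 of NS shRNA replicates 2 and 3 and shRNA #1 replicates 1 and 2 (adjusted p up to 0.0803). The corepressor CTBP1 was lower with both (-0.50 and -0.25), while CTBP2, named after its values were seen, was higher with both (0.66 and 0.51).

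Of the epithelial factors, ELF3 fell from 42.4 ± 1.88 CPM to 13.9 ± 0.78 and 28.9 ± 0.77 (-1.61 and -0.55, adjusted p = 8.5e-08 and 2.6e-05). GRHL2, an activator of CDH1, had 4 to 5 reads a library in NS shRNA, 2 to 4 with shRNA #1 and 0 to 2 with shRNA #2, too few to test. ESRP1, an epithelial splicing factor, had 0 to 2 reads in NS shRNA, 25 to 35 with shRNA #1 and 4, 2 and 13 with shRNA #2. Measured against the floor, shRNA #1 libraries were at least 10.6-fold higher. No fold is given for shRNA #2, where 1 library was under the floor and 1 just above it. It was counted among the genes higher with shRNA #1, and the median of the list does not depend on its value.

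**Figure D4:**
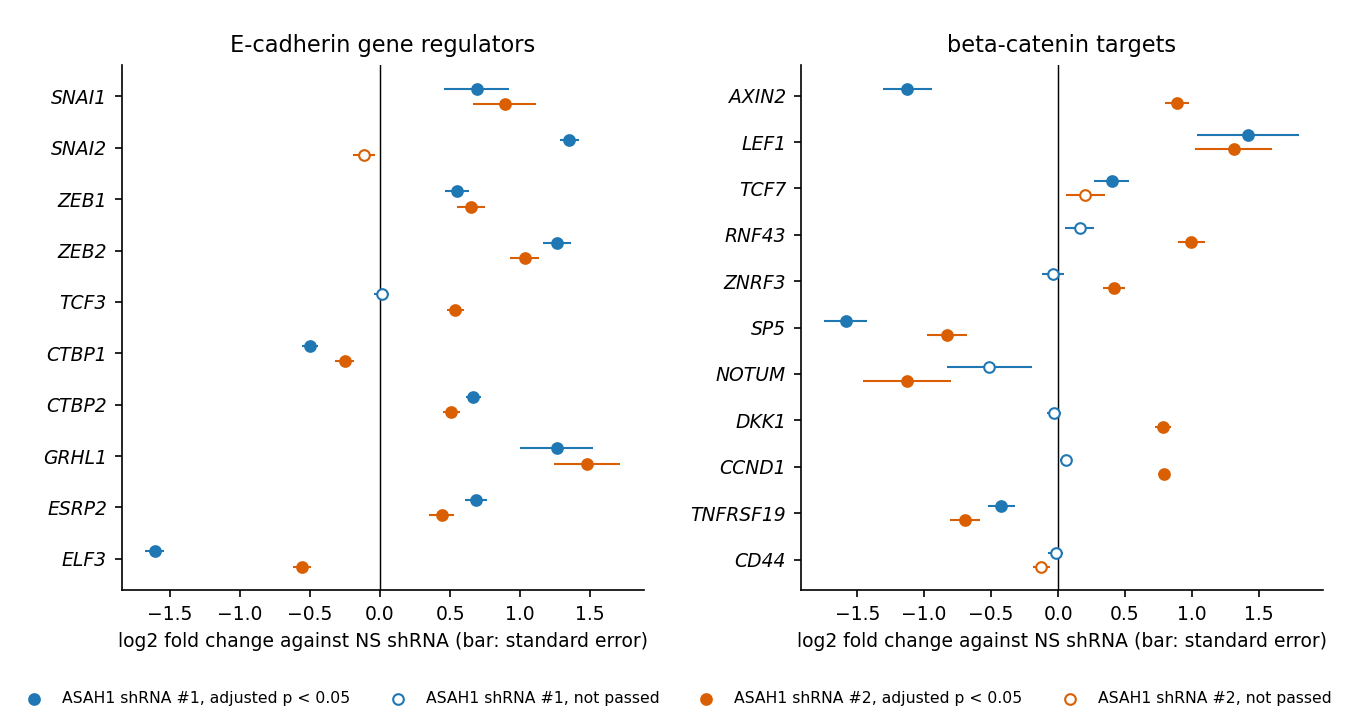
Log2 fold changes against NS shRNA (horizontal axis, bars of 1 standard error, 3 libraries a group) of the regulators of the E-cadherin gene (left) and of beta-catenin targets (right) tested with both hairpins, blue for shRNA #1 and orange for #2, filled where the adjusted p was below 0.05. ZEB1 and ZEB2 lie right of 0 with both hairpins, SNAI2 at 1.35 and -0.12, and AXIN2 at -1.12 and 0.89.

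Since JUP was lower while CTNNB1 changed little, the genes that degrade beta-catenin or work with it were read next. Of these 21 genes, all tested, 8 were higher and 5 lower with shRNA #1 and 8 higher and 2 lower with shRNA #2 (medians 0.03 and 0.03). The kinase GSK3B, which marks beta-catenin for degradation, was lower with both (-0.37 and -0.30). AMER1, a scaffold of the destruction complex, was higher with both (0.53 and 1.19), as was CREBBP (0.69 and 0.67), a co-activator of beta-catenin. CTNNBL1, named for its likeness to beta-catenin, was also higher with both (0.49 and 0.67). Whether CTNNBL1 works with beta-catenin was not tested. EP300 was higher with shRNA #1 (0.63), where the inhibitor CTNNBIP1 (-0.56) and SOX9 (-0.45) were lower. TCF7L2, a DNA-binding partner of beta-catenin, was lower with shRNA #2 (-0.40, adjusted p = 0.00172).

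Of 15 beta-catenin target genes, 12 were tested with shRNA #1, with 2 higher and 3 lower, and 11 with shRNA #2, with 6 higher and 3 lower (medians -0.03 and 0.42). AXIN2, a widely used readout of the pathway, was 5.53 ± 0.18 CPM in NS shRNA, fell to 2.60 ± 0.69 with shRNA #1 (-1.12, adjusted p = 0.000511) and rose to 10.3 ± 0.48 with shRNA #2 (0.89, adjusted p = 1.2e-05). SP5, another Wnt target, was lower with both (-1.58 and -0.83, adjusted p = 2.0e-05 and 0.000591), so AXIN2 and SP5 went opposite ways with shRNA #2. RNF43 was higher with shRNA #2 (0.99) and TNFRSF19 lower with both (-0.42 and -0.70). CCND1 and DKK1, named after their values were seen, were higher with shRNA #2 (0.79 and 0.78, adjusted p = 2.4e-07 and 1.6e-06) and had 0.06 and -0.03 with shRNA #1 (adjusted p = 0.255 and 0.652).

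Markers of epithelial breast cells were read to see whether CDH1 moved as they did. Of 16 markers, 13 were tested, with 3 higher and 7 lower with shRNA #1 and 4 higher and 7 lower with shRNA #2 (medians -0.48 and -0.31). Their summed level was 1347 to 1527 CPM in NS shRNA, 841 to 955 with shRNA #1 and 1147 to 1350 with shRNA #2, and the luminal markers ESR1 and PGR had at most 2 reads. SPINT1, an inhibitor of epithelial surface proteases (-1.26 and -1.66), CLDN3, a tight junction claudin (-1.06 and -1.29), and the keratin KRT8 (-1.50 and -0.77) were lower with both. EPCAM, the epithelial adhesion molecule (0.21 and 0.57, adjusted p = 0.0362 and 0.000391), and CLDN4 (0.16 and 0.36, adjusted p = 0.0413 and 0.00106) were higher with both, opposite to CDH1. The small shRNA #1 changes of both were not stable: over the alternatives the adjusted p reached 0.108 for EPCAM and 0.122 for CLDN4, and leaving out NS shRNA replicate 3 alone or shRNA #1 replicate 3 alone ended both calls, as did leaving out replicate 1 of either group for EPCAM and replicate 2 of either group for CLDN4. CDS1 was higher with shRNA #2 (0.42, adjusted p = 0.0127, and 0.0528 without NS shRNA replicate 1). Of the 10 MDA-MB-231 markers, 5 were higher and 3 lower with each hairpin (medians 0.10 and 0.06), and their sum was 6927 to 7027 CPM in NS shRNA, 6268 to 6454 with shRNA #1 and 6399 to 6541 with shRNA #2. EGFR (1.18 and 1.29) and FOSL1 (0.58 and 0.26) were higher with both, CAV1 (-0.64 and -0.36) and VIM (-0.27 and -0.67), the mesenchymal filament protein, lower with both, and S100A4 was lower with shRNA #1 (-1.36) and higher with shRNA #2 (0.33, adjusted p = 0.0128). The part of these markers in the cadherin values was not tested.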

How the data were processed

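Strand-specific mRNA libraries of MDA-MB-231 cells were sequenced, 3 each with NS shRNA, ASAH1 shRNA #1 and ASAH1 shRNA #2. Per the study's methods and the submitters' processing notes, the authors used Trimmomatic 0.36 for trimming, STAR 2.7.1a for alignment to hg38, htseq-count with the UCSC annotation and reverse strand for counting, and DESeq2 1.28. Another paragraph of those methods names Bowtie2, RSEM and edgeR. The deposited tables, 1 per hairpin with the same NS shRNA libraries, hold a normalized signal (reads divided by the library's size factor) for 26485 genes. The authors' own columns in them (a mean signal, a log2 fold change with its standard error, a Wald score, a p-value and its adjusted value) were not used.

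Each signal was a whole number of reads (within 0.1) times 1 value per library, in 100% of values, so the reads were recovered, with 0 differences in NS shRNA between tables. 28 symbols that a spreadsheet had turned into dates in 1 table were taken from the other. Each hairpin was compared with NS shRNA within its table by limma 3.58.1 with a trend on log2(value + 1), keeping genes whose mean over the 6 libraries reached 10. The hairpins were compared by edgeR 4.0.16 (filterByExpr, TMM, quasi-likelihood test) on the reads. DESeq2 1.42.0 was used as an alternative, with R 4.3.3, Python 3.11.15, pandas 2.3.3 and matplotlib 3.10.9. All tests were two-sided, with Benjamini-Hochberg adjustment at 0.05 over all genes tested. For each hairpin against NS shRNA, limma and edgeR were checked on simulated data in which far fewer genes changed than here. The test between the hairpins and DESeq2 were not checked in this way. RPKM is TMM-scaled CPM (counts per 1000000 reads) divided by the summed exon length of GENCODE annotation on hg38, which gave a length to 23123 of the 26485 genes. Positions are from the same annotation, and promoters, older symbols and the readthrough gene from RefSeq on GRCh38.p14.

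The members and the 8 gene lists were chosen with earlier results of these data known. In each list, comparison and direction, the 2 genes with the largest passing change and a mean normalized count of at least 100 were named, with the members, ASAH1, TMX2, TMX2-CTNND1, SNAI1, SNAI2, ZEB1, ZEB2, GRHL2, ESRP1, EPCAM, the genes next to the CDH1 and CDH3 pair, and the 5 genes nearest to CDH1 in pattern. The chi-square per gene between replicates was 5.26 to 23.2, so no library repeated another. Alternatives were other pseudocounts (0.1 and 5), filters, scalings, tests and lengths, a replicate block and leaving out each library.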

Additional observations from a re-analysis of the deposited data

Results flagged for a closer look

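CDH11 was lower with ASAH1 shRNA #1 (log2 fold change -0.83) and higher with ASAH1 shRNA #2 (2.63), and the difference between the hairpins was 3.454 on the log2 scale (edgeR adjusted p = 6.8e-12). The 3 libraries of each hairpin lay on opposite sides of all 3 NS shRNA libraries. CDH11 was chosen with the values of these libraries in view, so its adjusted p is a description and not an independent test.

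AXIN2 (a log2 difference of 1.948 between the hairpins) and S100A4 (1.688) were also lower with shRNA #1, higher with shRNA #2 and called different between them (edgeR adjusted p = 4.6e-07 and 1.3e-07). The shRNA #2 call of S100A4 was lost without a trend in limma (adjusted p = 0.0587).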

How the results depend on the processing

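All counts of members, of list genes and of all genes past the threshold stayed within 1.5 times their main value under each alternative run. For single members, 395 of the alternative values kept direction and side of the threshold. Leaving out 1 library at a time gave CTNND1 log2 fold changes of -0.195 to 0.246 with shRNA #1, -0.0927 to 0.247 with shRNA #2 and -0.236 to 0.218 between the hairpins, and JUP values of -0.0478 to 0.00319 between the hairpins, none of them a call. CTNND1 with shRNA #2 was -0.00275 with upper quartile rescaling. With shRNA #1, CTNNA1 moved past the threshold with upper quartile rescaling (0.11) and with edgeR (0.10), and CDH3 without NS shRNA replicate 3 (0.67). As this comparison was known when the members were chosen, nothing is read from such moves. Among the other named genes, leaving out 1 library gave CAMSAP3 -0.00931 to 0.3603, DKK1 -0.0692 to 0.00854 and CDS1 -0.0917 to 0.0424 with shRNA #1 and FAT4 -0.138 to 0.0217 with shRNA #2, and PIP5K1C with shRNA #2 was -0.0095 with upper quartile rescaling.

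Calls changed for 10 of the other named genes. With shRNA #1, calls of EPCAM, CLDN4 and SNAI1 were lost in some alternatives (adjusted p up to 0.108, 0.122 and 0.0803), and with shRNA #2 those of LIMA1, ZFP90, S100A4 and CDS1 (up to 0.0911, 0.0818, 0.0587 and 0.0528), 31 lost values in all. In 8 values a call was gained: PKP4 with shRNA #1 and CELSR3 and EP300 with shRNA #2 (adjusted p down to 0.0366, 0.0376 and 0.00774).

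Same-numbered libraries did not deviate together as a rule (correlations of deviations from -0.584 to 0.466), so the numbers were not taken as pairs. Some libraries of different number shared deviations, up to 0.515 for NS shRNA replicate 3 with shRNA #2 replicate 2. With a replicate block, 4120 genes were higher and 4117 lower with shRNA #1 and 4246 and 4280 with shRNA #2. The member CTNNB1 (-0.16), EPCAM and CLDN4 with shRNA #1 and LIMA1 and ZFP90 with shRNA #2 then no longer passed. Few reads limit CDH13, CDH3, CTNND1 and, in the knockdown libraries, CDH1, which rest on at most 57 reads. What set the low CTNND1 counts was not tested. CDH2, the lower term of the CDH1 to CDH2 ratio, had 34 to 53 reads in the NS shRNA libraries. RPKM levels, their sums and their ratios depend on the exon length chosen.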
